A study of Mus musculus with 15 samples.

Results

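The baseline expression profile of splenic regulatory T cells (Treg) that carried the Foxp3EGFPCre allele and no other engineered change was described from 4 of the 15 arrays of a study of Notch signalling in Treg. These 4 arrays, titled with the Foxp3EGFPCre allele alone, are called controls 2, 3, 4 and 5 after the replicate numbers in their titles. In this allele the Foxp3 locus drives a fusion of green fluorescent protein and Cre recombinase, so the cells served as the Cre-only reference of a series whose other arrays held Treg that also carried an activated Notch1 transgene, a deletion of Rbpj or both. The mice were males 6 weeks old, and each array holds sorted cells pooled from more than 1 mouse, so it stands for a pool and not for an animal. Live cells positive for CD3, the beta chain of the T cell receptor (TCR), CD4 and the green fluorescence of Foxp3 were taken on a MoFlo sorter, after cells with CD8, B220, CD11b, CD11c or Gr1 had been gated out. RNA of 40000 to 50000 cells was amplified and read on whole-transcript arrays for mouse (Affymetrix Gene 1.0 ST), which probe each transcript with short oligonucleotides along its exons. The labels do not say which sorts shared a day or a mouse, so the spread between these 4 arrays may be partly technical.

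Treg are CD4 T cells that hold other immune cells in check, and their identity depends on the transcription factor Foxp3. They consume interleukin 2 through a receptor that contains the chain encoded by Il2ra, they restrain antigen-presenting cells through Ctla4, and those that arise in the thymus usually carry the surface protein neuropilin 1, encoded by Nrp1. Most Treg of a healthy spleen are resting cells that circulate through lymphoid tissue, and a smaller share has an activated, effector-like phenotype.

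All levels below are array intensities on the linear scale, given in the order of controls 2, 3, 4 and 5, and means are geometric means over the 4 arrays. Each gene was set against the median of all 24922 features of the array, which was 108.4, 109.2, 108.4 and 111.1, and against a floor. The floor was the 95th percentile, on each array, of 1190 olfactory and vomeronasal receptor genes, which sensory neurons of the nose use and T cells are not known to use. It lay at 70.5, 72.1, 71.1 and 80.2. Since 5% of those receptor genes exceed the floor on each array by construction, a level slightly above it shows little. Probes of different genes respond differently to the same amount of RNA, so a rank is a rank of brightness and not of molecules per cell. The spread of a gene is the standard deviation (SD) of its log2 intensity over the 4 arrays, and no comparison of groups was tested, because the arrays form a single group.

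Of the 19752 genes measured by features that name 1 gene, 11403 (57.7%) were above the floor on all 4 arrays, 9181 (46.5%) were above the array median on all 4, and 6860 (34.7%) were below the floor on all 4. The median SD was 0.128 over all genes and 0.135 over the genes above the floor. Controls 2 and 3 were the most alike, with a correlation of log2 intensities over genes of 0.997 and 5 genes above the floor that differed more than 2-fold. The other pairs had correlations of 0.987 to 0.991 and 64 to 116 such genes. These correlations are across genes, which are not independent replicates. Control 5 stood apart from the others by a higher floor, a brightest feature of 14796 against 17504 to 18030, and 11710 genes above its own floor against 12352 to 12384. Without control 5 the median SD of the genes above the floor fell from 0.135 to 0.0949, and 11909 genes were above the floor on the 3 arrays left. Controls 4 and 5 also stood apart from controls 2 and 3 by immediate early, intestinal and cell cycle transcripts, as described with those genes, and the counts of variable genes are given with and without them.

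**Figure D1:**
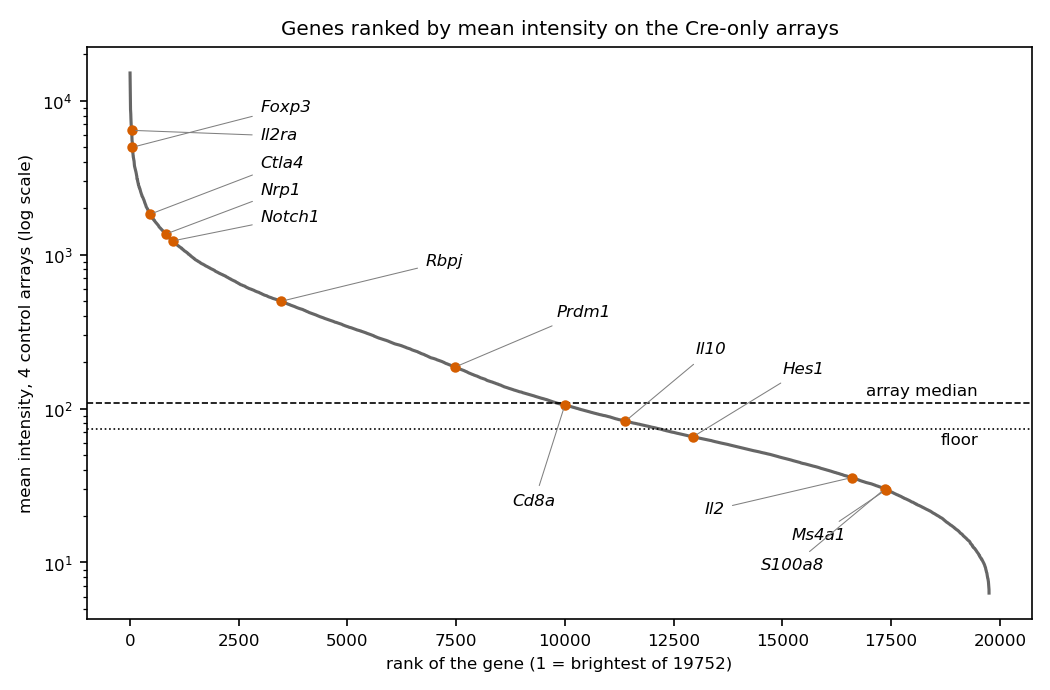
Mean intensity over the 4 control arrays on a log scale (vertical axis) for 19752 genes ordered from brightest to dimmest (horizontal axis), with selected genes marked and lines at the mean array median and the mean floor. Foxp3 and Il2ra sit among the brightest genes, Ctla4, Nrp1 and Notch1 above an intensity of 1000, and Il2, Ms4a1 and S100a8 lie below the floor.

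The brightest features belonged to genes of the cytoskeleton, of translation and of the T cell surface. The beta-actin gene Actb read 14565, 14729, 14311 and 13210.0, which was 129.9 times the array median, and the elongation factor gene Eef1a1 read 12669, 12695, 13284 and 11318. B2m, the light chain of the major histocompatibility complex (MHC) class I molecule, read 10889, 10779, 10248 and 10907, and Ly6e, a surface protein induced by interferon, read 9409, 9812, 8707 and 9979. Intensities of these genes hardly varied, with SDs of 0.071, 0.098, 0.042 and 0.088. The 20 brightest genes, after 1 small nuclear RNA gene was passed over, also held 7 ribosomal protein genes (Rps6, Rps15, Rpl21, Rplp0, Rpl28, Rpl10 and Rps10) and Tpt1, a translation-associated protein. They further held Fxyd5, a regulator of the sodium pump, Srgn, the core protein of secretory granule proteoglycans, the actin-binding genes Pfn1 and Tmsb4x, the GTPase regulator Arhgdib, the ubiquitin-conjugating enzyme gene Ube2d3 and the mitochondrial gene COX2. The brightest 20, 100 and 1000 genes held 3.20%, 9.76% and 36.8% of the summed intensity of all genes.

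The feature named Baiap2l1, a gene for a membrane-bending adaptor protein, was the second of these 20. It read 16657, 16179, 15852 and 6208. Controls 2, 3 and 4 lay close together and control 5 was far lower, with 2.68 times between the highest and the lowest array. The features of that name disagree: the mean of them lay 3.57 log2 units above the array median in place of 6.87. The probe table lists noncoding RNA records beside the gene for this feature, and whether the signal is that of Baiap2l1 was not tested. RefSeq has the gene on chromosome 5, whereas most of the 50 features nearest to it in the array's numbering, which runs along the chromosomes, belong to chromosome 17. The same held for 11 of the 20 brightest genes against 1.60% of all genes and 7.25% of the brightest decile (the brightest 10% of genes). Among the 60 ribosomal protein genes it held for 28, and among the 15 genes of largest spread for 0. For those 11 genes, which include Rps6, Tpt1, Rpl21 and COX2, the level may be that of a near-identical copy elsewhere in the genome or of several copies together, and the files do not tell these apart.

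Foxp3 itself was among the brightest genes of the arrays. Its transcript cluster (10598292; gene on chromosome X) read 4761, 5331, 5012 and 4834, which was 45.6 times the array median with an SD of 0.073 and placed it at rank 56. The 4 arrays lay within 1.12 times of each other. Since the cells were sorted by the fluorescence of the Foxp3 locus, this level checks the label and is no finding. The start of the gene is given because the sort depended on it, as 300 bases from 250 before to 50 after the RefSeq transcription start (GRCm38.p6, chrX:7579426-7579725, plus strand). Capitals mark the letters TATAAA, which resemble the element bound by the TBP protein and begin 32 bases before the start. The window holds 6 CpG dinucleotides, and it is the first of 2 windows listed for the gene.
Foxp3: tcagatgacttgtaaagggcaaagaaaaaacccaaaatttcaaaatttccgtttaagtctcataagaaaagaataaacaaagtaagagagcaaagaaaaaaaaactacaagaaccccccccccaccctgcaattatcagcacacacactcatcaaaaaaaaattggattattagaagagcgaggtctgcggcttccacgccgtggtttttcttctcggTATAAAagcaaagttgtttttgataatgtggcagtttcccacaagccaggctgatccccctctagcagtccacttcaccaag

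The other markers of the label were bright as well. Il2ra read 6408, 6361, 5869 and 7064, 58.7 times the array median, with an SD of 0.11. Ctla4 read 1719.7, 1589, 2042 and 2002, 16.7 times the array median, and was higher on controls 4 and 5 than on controls 2 and 3. Nrp1 read 1569, 1458, 1279 and 1163, 12.4 times the array median, and ran the other way, with both of the higher values on controls 2 and 3. All 4 markers were above the median on all 4 arrays, as were 46.5% of all genes, so none went against the label of Treg.

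The genes behind the sorting gate followed their labels in most cases. Cd3e, a signalling chain of the TCR complex, read 5732, 5709, 4707 and 5946. The co-receptor gene Cd4 read 3523, 3435, 2755 and 1619, so control 5 was the lowest and the highest array was 2.18 times the lowest. Among the genes of the excluded markers, Itgam (CD11b) read 47.4, 49, 55.7 and 54.3, Itgax (CD11c) read 51.8, 51.8, 52.8 and 45.7 and Ly6g, which encodes an antigen of the Gr1 antibody, read 46.3, 48.8, 37.4 and 48. These 3 genes were below the floor on every array, as were 34.7% of all genes. Cd8a read 115, 115, 86.9 and 106, close to the array median. The feature for the other chain of that co-receptor, Cd8b1, was bright at 500.5, 488, 455 and 621, 4.69 times the array median. Of the 9 genes listed as markers of CD8 T cells, 5 were above the floor on all arrays, against 57.7% of all genes. Ccl5 (469 to 650), the brightest of the 9, and Eomes (117 to 184) were above the array median on all 4 arrays. Gzmk (53.3 to 67.8), Klrd1 (20.3 to 30.2) and Klrc1 (17.5 to 24.7) were below the floor. The part of CD8 cells in the level of Cd8b1 was not tested. B220 is a form of the protein of Ptprc, which all leukocytes make, so the gene level of 4454 to 4719 says nothing about that part of the gate.

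**Figure D2:**
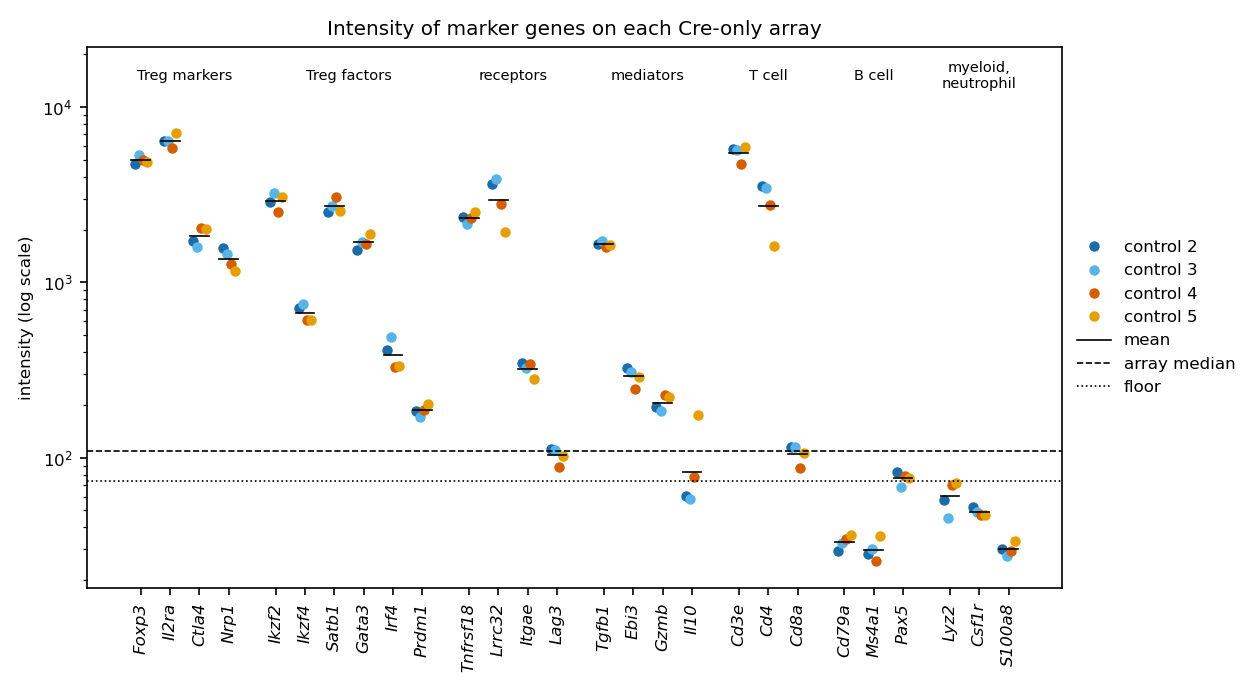
Intensity of marker genes on each of the 4 control arrays (coloured points, log scale) with their geometric mean (bar), and lines at the mean array median and mean floor. Most Treg and T cell genes lie above the median on all arrays, with Lag3, Cd8a, Il10 and Prdm1 near it. The selected B cell, myeloid and neutrophil genes lie near or below the floor. Brighter members of those lists, such as Cd79b, Cd74 and Cd68, are not shown. The arrays differ most for Il10.

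All 23 transcription factors of the Treg list were above the floor and above the median on all 4 arrays, against 57.7% and 46.5% of all genes, with a list median of 8.26 times the array median. Ikzf2 (Helios), a factor of thymus-derived Treg, read 2868, 3254, 2530.0 and 3048, and its relative Ikzf4 (Eos), a partner of Foxp3 in repression, read 714, 749, 607 and 607. Satb1, a genome organiser that helps to set up the Treg program in the thymus, read 2509.8, 2743, 3062 and 2551. Neither Ikzf2 nor Satb1 varied much between arrays, with SDs of 0.15 and 0.13. Rel, the NF-kappa-B subunit that switches Foxp3 on, read 2685, 2769.6, 2331 and 2904, and Foxo1, which keeps Treg in a resting and circulating state, read 1858, 1954, 2161 and 1964. Ets1, a factor that binds an enhancer of Foxp3, read 3064, 3045, 2967 and 2219.5 and was lowest on control 5. Gata3, shared by helper cells of type 2 and Treg, read 1531, 1695, 1653 and 1897, and the Foxp3 partners Runx1 and Cbfb read 912 to 1157 and 756 to 971 over the arrays. The interleukin 2 signal transducers Stat5a and Stat5b read 814 to 921 and 933 to 1261, and Bach2, which holds effector differentiation back, read 1059 to 1151.

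Factors linked to effector Treg were of unequal level. Maf read 872, 784, 1028 and 945 and Myb read 509.99, 468, 380 and 633. Irf4 read 413, 489, 329 and 331, its partner Batf read 333, 322, 339 and 279, and Prdm1 (Blimp-1), which is switched on in effector Treg, read 186, 169.9, 187 and 204. Prdm1 was thus 1.70 times the array median and the dimmest member of the list. Irf4 was higher on controls 2 and 3 than on controls 4 and 5.

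The surface receptors of Treg formed the brightest of the Treg lists after the 4 markers, with a median of 15.5 times the array median. Of 28 measured members, 27 were above the floor on all arrays, against 57.7% of all genes. Il2rb, the second chain of the interleukin 2 receptor, read 4662, 4776, 3896 and 3186 and was lowest on control 5. Of the tumour necrosis factor receptor family, Tnfrsf18 (GITR) read 2358, 2164, 2338 and 2515, Tnfrsf4 (OX40) read 2579.9, 2527, 2354 and 2423 and Tnfrsf9 (4-1BB) read 2051, 1757, 1368 and 1503. Tnfrsf18 and Tnfrsf4 were among the steadiest genes of the list, with SDs of 0.089 and 0.059. Izumo1r (folate receptor 4) read 3756, 3373, 2695 and 3446 and Gpr83, an orphan receptor enriched in Treg, read 1784, 2181, 1481 and 1589.7. Lrrc32 (GARP), which docks latent transforming growth factor beta on the Treg surface, read 3633, 3886, 2813 and 1949. It had the largest spread of the list, with an SD of 0.45, and controls 2 and 3 were above controls 4 and 5. Tnfrsf1b (TNF receptor 2) showed the same order, at 1602, 1472, 1204 and 815.

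The co-stimulatory receptors Cd28, Icos and Cd27 read 2412 to 2639, 1634 to 1964 and 3914 to 4606, and the inhibitory receptors Cd5 and Cd96 read 3557 to 3884 and 3206 to 3708. Nt5e (CD73) and Entpd1 (CD39), turn extracellular ATP into adenosine together. Nt5e read 2130.5, 1576, 1796 and 1811, and Entpd1 read 617, 559, 487 and 538. Tigit, an inhibitory receptor of activated Treg, read 1259, 1225, 1024 and 1251, with control 4 below the other arrays. Other members of the list lay nearer to the array median. Pdcd1 (PD-1) read 587, 494, 429 and 337, Klrg1 read 559, 425, 533 and 507 and Itgae (CD103) read 347, 326, 341 and 279.8. Lag3 read 112, 111, 88.8 and 102, at the array median. Havcr2 (TIM-3) read 61.8, 64.6, 53.4 and 65.1 and was below the floor on all 4 arrays, the only measured member of the list to be so.

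The effector molecules of suppression were mixed. Of 16 measured members, 13 were above the floor on all arrays, against 57.7% of all genes, and the median of the list was 1.62 times the array median. Lgals1 (galectin 1) read 2289, 2115, 2155 and 2167 and Tgfb1 read 1646, 1728, 1590.2 and 1624, both with an SD of about 0.051. Penk, which encodes enkephalin precursors and is known in Treg, read 887, 852, 605 and 779, and Cd274 (PD-L1) read 796, 728, 678 and 701. Ebi3, a subunit of interleukins 27 and 35, read 323, 309, 246 and 289.97, whereas Il12a, the other subunit of interleukin 35, read 65, 67, 58.5 and 64.2 and was below the floor on all arrays. Of the cytotoxic genes, Gzmb read 194, 184, 229 and 223 and Prf1 read 146, 125, 161 and 156, while Gzma was below the floor at 24.8 to 32.4. Fasl read 75.7, 76.9, 112 and 106, and Fgl2, a secreted inhibitor of dendritic cells, read 186, 164, 135 and 125.

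Il10 was the only member of that list with an SD over 0.5. It read 60.3, 58.1, 77.1 and 174, so controls 2 and 3 were below the floor, control 4 was just above it and control 5 was above the array median. Its SD was 0.74, against a median of 0.20 for the list. Because 1 array carries the signal, the mean of Il10 is not a good description of the group.

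The TCR signalling machinery was bright throughout. All 25 members were above the median on all arrays, against 46.5% of all genes. The list median was 16.6 times the array median and the median SD was 0.14. The receptor-complex genes Cd3g, Cd3d and Cd247 (zeta) read 4212 to 5119, 881 to 1189 and 817 to 1062. The adaptor Lat read 2869, 3199, 3176 and 2798, and Lcp2 (SLP-76), which it recruits, read 3938, 3956, 3944 and 4576. Prkcq (protein kinase C theta) read 4185, 4335, 4407 and 4103 and Rasgrp1, which activates Ras downstream of the TCR, read 3846, 4083, 3893 and 3995. Both varied little, with SDs of 0.047 and 0.039. Zap70, the kinase that binds the activated receptor, read 957, 900.4, 891 and 767, and Skap1, an adaptor for integrin activation, read 1428, 1401, 1395 and 1410.2 with the smallest SD of the list (0.015). Csk, the kinase that holds Src-family kinases inactive, read 1425, 1467, 1459 and 845, where control 5 was the low array.

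Of the variable gene segments of the TCR, 8 had a feature of their own. Trbv1 read 2162, 2098, 1772 and 591, so controls 2 to 4 lay together and control 5 was 3.66 times below the highest array. Trgv1, a segment of the gamma locus, read 193, 215, 144 and 427 and was highest on control 5, and Trav14-1 read 334, 314, 551 and 639.5. Trdv2-2, of the delta locus, read 39.1 to 44.6, below the floor. Segments of 1 family share sequence, so these levels can mix several segments.

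Genes of recirculation and quiescence were bright. Ccr7, the chemokine receptor for entry into lymph nodes, read 3315, 3412, 3019.8 and 2852, and S1pr1, the receptor for exit from them, read 2489, 2509.6, 2123 and 2015. Il7r, whose product passes survival signals to resting T cells, read 2642, 3121, 2367 and 3073, and Bcl2, an inhibitor of cell death, read 2585, 2756, 2689.5 and 2738. Lef1, a factor of naive T cells, read 2393, 2291, 2137 and 2657, and the antiproliferative gene Btg1 read 5935, 5740.4, 6957 and 5457. All 16 measured members of the quiescence list were above the median on all arrays, against 46.5% of all genes. The list median was 14.4 times the array median. Klf2, which drives S1pr1, read 821, 817, 1123 and 639. Btg2, the relative of Btg1, read 1091, 1301, 2673 and 2433 and separated controls 2 and 3 from controls 4 and 5.

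All 24 measured homing receptors were above the floor on all arrays, against 57.7% of all genes. Of them, 21 were above the median on all arrays, against 46.5% of all genes. Of the integrin chains, Itga4 read 3856, 3738, 3468 and 3102 and its partner Itgb7 read 1349, 1163, 1374 and 749.8. Itgal read 2540.0, 2477, 1964 and 1365 and its partner Itgb2 read 2725, 2657, 2436 and 1726. Selplg, the ligand of P-selectin, read 3472, 3699, 3455 and 3035. Itgal, Itgb2 and Itgb7 were each lowest on control 5. The chemokine receptor gene Ccr4, linked to skin and inflamed tissue, read 1530.4, 1378, 1312 and 1143, Cxcr3, linked to type 1 inflammation, read 534, 496, 498 and 567, and Cxcr5, the follicular receptor, read 242, 172, 174 and 149. The dimmest members were Gpr15 (122 to 128), Ccr10 (95.8 to 124), Cx3cr1 (99.96 to 106) and Cxcr6 (81.1 to 86.3). Gpr15, Cx3cr1 and Cxcr6 guide T cells to the large intestine, to inflamed vessels and to liver and other tissues.

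Among cytokine receptors, 20 of 23 were above the floor on all arrays, against 57.7% of all genes. Il6st, the shared signal chain of the interleukin 6 family, read 2531, 2530.3, 2295 and 2154, and Il6ra read 1856, 1807, 1948 and 1475. Ifngr1 read 2316, 2425, 2129 and 1963, and both transforming growth factor beta receptor chains were above the median, with Tgfbr1 at 960.2 to 1018 and Tgfbr2 at 944 to 1308. Il10ra, the ligand-binding chain of the interleukin 10 receptor, read 598, 924, 569.5 and 649, highest on control 3. Il12rb2 (41.4 to 53.1) and Il23r (36.1 to 42.2), the inducible chains of the interleukin 12 and 23 receptors, were below the floor on all arrays.

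The factors that direct helper T cell subsets differed among themselves. Stat4, the transducer of interleukin 12, read 2286, 1972, 1959 and 2308, and Stat3 and Stat6 read 1429 to 1882 and 1311 to 1678. Tbx21 (T-bet), the type 1 factor, read 202, 184, 132 and 192, Eomes read 184, 117, 128 and 169, Rora, a factor of interleukin 17 producers, read 342, 287, 394 and 376, and Bcl6, the follicular factor, read 266, 330.3, 260.3 and 281. These 4 factors were above the median on all arrays. Spi1, a factor of myeloid and B cells, read 56.2, 52.3, 43.5 and 54.3 and was below the floor.

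Cytokine genes of helper cells were mostly dark. Of 18 measured, 6 were above the floor on all arrays, against 57.7% of all genes, and the list median was 0.530 times the array median. Il2, which Foxp3 represses, read 34.1, 31.1, 37.9 and 39.8, Il4 read 51.8, 57.1, 57.7 and 57.9, and Il17a read 79.5, 79.5, 79.5 and 72.5, around the floor. The values of Il17a on controls 2, 3 and 4 are equal to the digits of the table, a property of the summarised values that 1784 of 24922 features share on at least a pair of arrays, so an SD near 0 is not evidence of precision. The 4 members above the median on all arrays were Ccl5, a chemokine of activated T cells (533, 650.2, 469 and 551), Tnf (515, 445, 515 and 538), Lta (256, 203, 221 and 222) and Ifng (111, 124, 181 and 207). Ifng was higher on controls 4 and 5 than on controls 2 and 3. Il6 was the dimmest of the list, at 10.4 to 14.2.

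Notch signalling, the pathway the study altered in its other groups, passes from a cleaved receptor to the DNA-binding protein RBPJ, which then turns from a repressor into an activator of genes such as those of the Hes and Hey families. In the Cre-only cells 26 of 28 pathway genes were above the floor on all arrays, against 57.7% of all genes. Of the receptors, Notch1 read 1443, 1367, 1374 and 836, with control 5 well below the other arrays, and Notch2 read 1142, 1023, 999.9 and 675, again lowest on control 5. Notch3 (115 to 122) and Notch4 (111 to 123) lay just above the array median. With features that name several genes, the level of Notch4 was 1.78 log2 units above the median in place of 0.088. Rbpj read 571, 472, 470.3 and 483, 4.55 times the array median, and control 2 was the high array. The features that name Rbpj disagree: this is the brightest of them, and their mean lay 0.60 log2 units above the array median in place of 2.19. Of the enzymes that cut the receptor, Adam10 read 1105, 1121, 975 and 958 and the gamma-secretase subunit gene Psenen read 5045, 5489, 4159 and 5106. Lfng, which adds sugar to the receptor and changes its choice of ligand, read 2079, 2184, 1988 and 1511. The coactivator genes Maml1, Maml2 and Maml3 read 288 to 354, 586 to 1069 and 136 to 202, and Maml2 was highest on control 5. The ligand genes were dim: Jag1 read 57.4, 57.3, 47.2 and 53.7, Dll1 read 61.8, 64.2, 71.1 and 69.2, Dll4 read 80.4, 93.2, 87.1 and 85.8 and Jag2 read 116, 99.6, 109 and 90.04.

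The targets of Notch were of unequal level. Il2ra, Cd3e, Bcl2 and Gata3, which are also part of the lists above, were far above the median on all arrays. Myc read 1815, 1714, 1585 and 1433, and Dtx1 (Deltex 1), a ubiquitin ligase and feedback regulator of the pathway, read 2001, 1475, 1968 and 1242. The repressors for which the pathway is best known lay near the array median or below it, apart from Hes5. Hes1 read 68, 55.1, 67.9 and 72.7 and was below the floor on all arrays, Hey1 read 92, 79.3, 100.2 and 112, Heyl read 82.6, 98.6, 102 and 91.7, Hey2 read 26.8 to 34.9, and Hes5 read 199, 208, 206 and 177. Nrarp, a feedback inhibitor of the pathway, read 74.1, 68.1, 114 and 97.7 and was higher on controls 4 and 5. Over the 15 targets the median was 1.09 times the array median, with 11 above the floor on all arrays, against 57.7% of all genes.

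**Figure D3:**
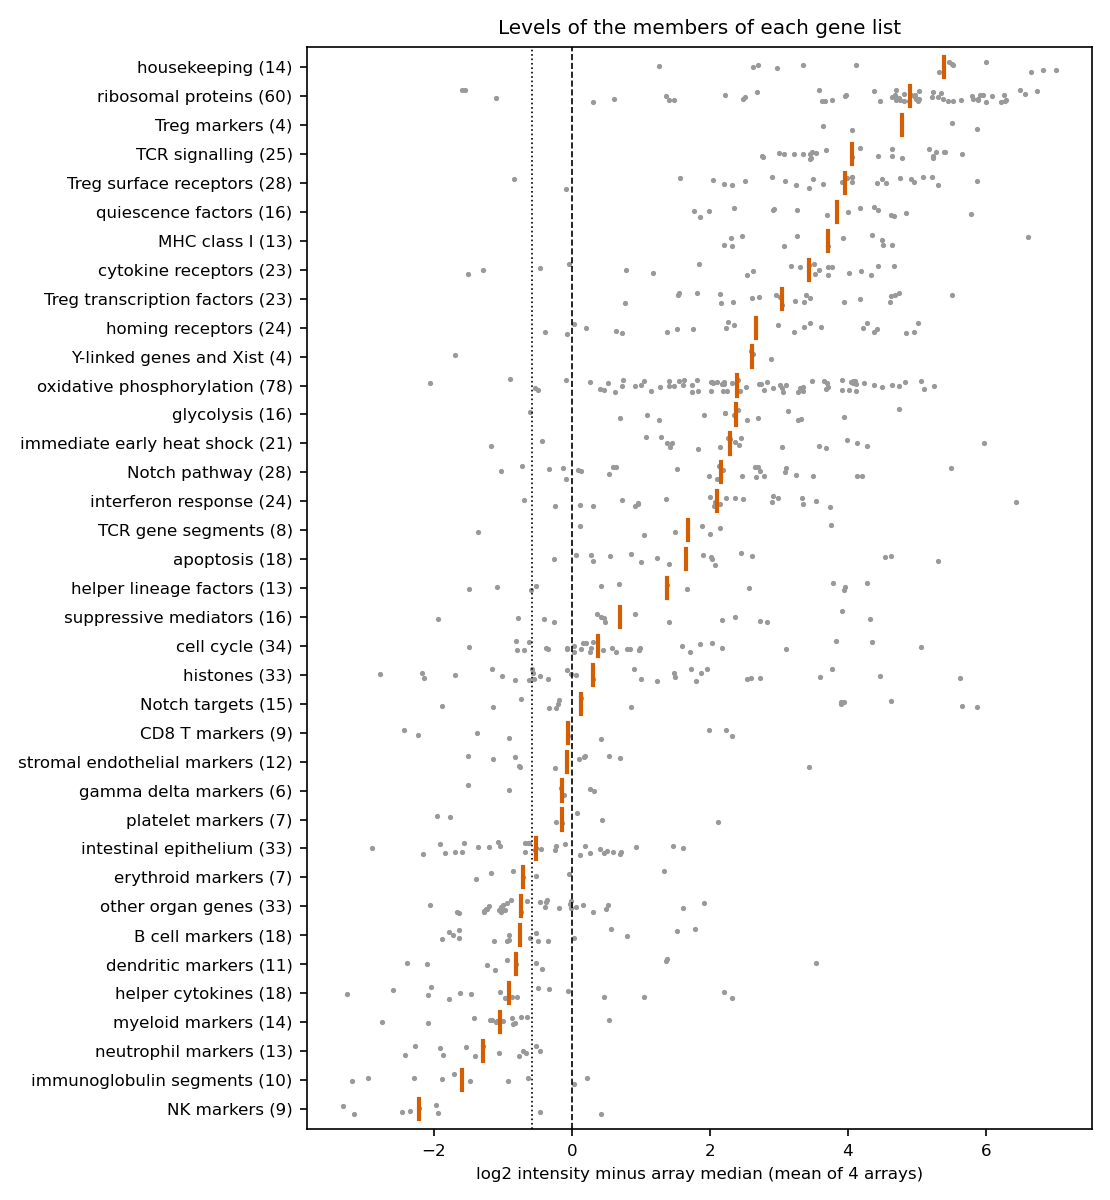
Level of each member (grey points) and median (orange bar) of the gene lists, as log2 intensity minus the array median averaged over the 4 control arrays, with the number of measured members in brackets; the dashed line is the array median and the dotted line the mean floor. Housekeeping genes, ribosomal protein genes and the 4 Treg markers lie highest, and natural killer, immunoglobulin and neutrophil genes lowest.

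Basic cell functions were represented by nearly all of their genes. The list median of 60 ribosomal protein genes was 29.8 times the array median, and 28 of them had neighbouring features of another chromosome, as described above. Of the 60, 57 were above the floor on all arrays, against 57.7% of all genes. The 3 others were the paralogs Rpl10l, Rpl3l and Rpl39l, which are known from testis or muscle and read 33.7 to 70.9, 33.3 to 39.3 and 30.9 to 40.2. The 78 subunit genes of oxidative phosphorylation had a median of 5.27 times the array median. Of these, 74 were above the floor, against 57.7% of all genes. The 4 others, Cox6b2, Cox7a1, Cox7b2 and Cox8b, are also forms known from testis or muscle, and they read 72.6 to 84.3, 55.1 to 69.5, 25.6 to 26.6 and 71.5 to 86.2. Among glycolytic genes, Ldha (lactate dehydrogenase A) read 3331, 3568, 2928 and 2111, lowest on control 5, Slc2a3 and Slc2a1, glucose transporters, read 803 to 1284 and 844 to 1054, and Hk2, the hexokinase that activated T cells use, read 73.4, 73.9, 74 and 64.9, at the floor.

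All 13 measured genes of MHC class I presentation were above the median on all arrays, against 46.5% of all genes. They included Nlrc5, the transactivator of class I genes, at 2261, 2228, 2169 and 2259, and the peptide transporter gene Tap1 at 1752, 1738, 1738 and 1453. Tapbp, which loads the peptides, read 1830.1, 1752, 1509.8 and 857 and was lowest on control 5. Of the genes that respond to interferon, 23 of 24 were above the floor, against 57.7% of all genes. Irf1 read 1600.2, 1204, 1555 and 1507, Ifit1 read 522, 510.4, 437 and 867 and Ifit3 read 360.4, 366, 411 and 672, and both Ifit genes were highest on control 5. The mean of the features of Irf1 was lower than its brightest feature, at 2.18 against 3.74 log2 units above the array median, and that of Nlrc5 was 3.14 against 4.35. Mx2 lay below the floor at 66.3 to 70.3. Among regulators of cell death, the initiator caspase gene Casp8 read 4289.8, 4349, 4191 and 4479 and the survival factor Mcl1 read 2756, 2665, 2896 and 1948, while Bcl2l11 (BIM), which opposes Bcl2, read 405, 571, 457 and 381.

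Markers of other cell types were mostly near or below the floor. Of 13 neutrophil genes, 0 were above the floor on all arrays, and S100a8 and S100a9 read 27.6 to 33.4 and 42.8 to 63.3. Of 14 myeloid genes, 1 was, namely Cd68, at 99.6, 108, 209 and 287, with both controls 4 and 5 above controls 2 and 3. Lyz2 read 57.3, 45.5, 69.7 and 71.7 and Csf1r read 52, 49.2, 47.4 and 47.3, all below the floor. The summed intensity of the myeloid list, Cd68 included, was 738, 740.4, 851 and 1011. That of the 1190 olfactory and vomeronasal receptor genes was 36455, 37039, 36288.5 and 42774, so it too was highest on control 5. Of 18 B cell genes, 6 were above the floor, and the defining genes Ms4a1 (CD20) and Cd79a were not, at 25.7 to 35.8 and 29.5 to 36.3. Cd79b, which read 402, 415, 371 and 322, and Cd74, the invariant chain of MHC class II, which read 298, 300.2, 286 and 384, were the brightest of that list. Of the natural killer genes, 2 of 9 were above the floor, and Ncr1, which defines these cells, read 17.1 to 22. Their counts stand against 57.7% of all genes. Of 11 dendritic cell genes, 3 were above it, of which Cst3, which many cells express, read 1268, 1496, 1101 and 1255.

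Of the remaining lists, 4 of 6 genes of gamma-delta T cells were above the floor on all arrays, 3 of 7 erythroid genes, 5 of 7 platelet genes and 7 of 12 stromal and endothelial genes, against 57.7% of all genes. Pf4, the platelet chemokine, read 30.4 to 34.6, and Cdh5, the cadherin of blood vessels, read 59.97 to 63.9, both below the floor. Other members were bright: the highest of the platelet list was 4.35 times the array median and the highest of the stromal and endothelial list 10.8 times. Immunoglobulin segments were dark, with 2 of 10 above the floor and a median of 0.332 times the array median. Genes specific to other organs numbered 13 of 33 above the floor. Examples were Ckm of muscle at 112 to 132 and Prm2 of sperm at 153 to 168. The brightest of the 33 was 3.76 times the array median, and the brightest olfactory or vomeronasal receptor gene 4.55 times. Levels up to a few times the array median thus occur for genes that T cells are not known to use. Of the histone genes, 21 of 33 were above the floor, among them the variant gene H2az1 at 2269 to 2606. Of the housekeeping and apoptosis lists, all 14 and all 18 measured genes were.

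The labels give only males. Of the Y-linked genes, Kdm5d read 668, 725, 621 and 694, Eif2s3y read 821, 894, 589 and 978 and Uty read 662, 662, 591 and 731. Xist, transcribed from the inactive X chromosome of females, read 31.9 to 34.9, below the floor. All 4 arrays therefore matched the label.

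**Figure D4:**
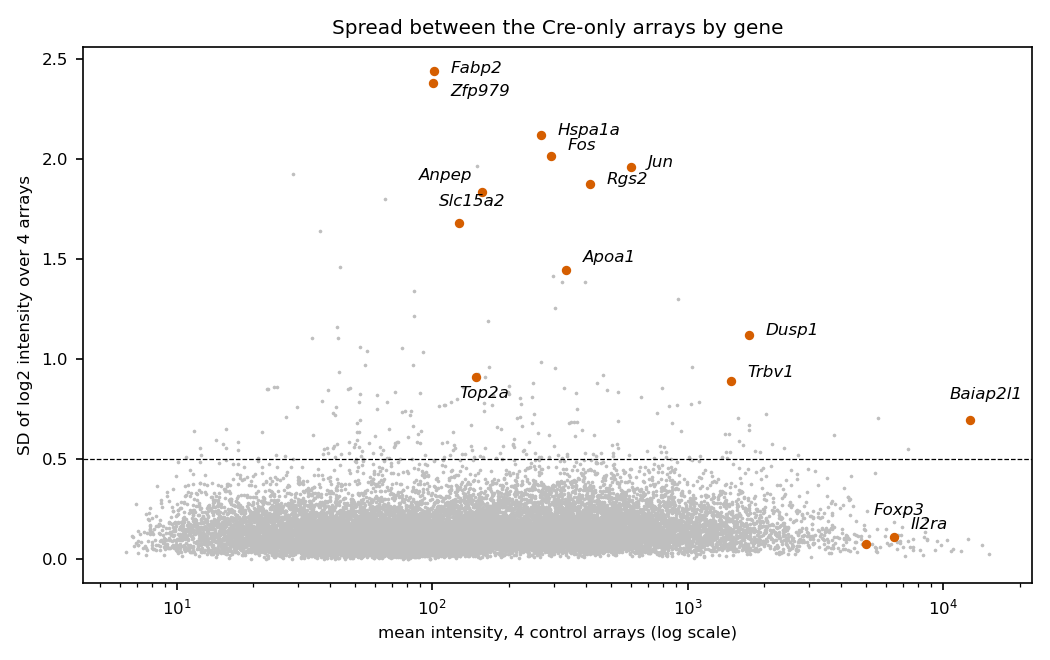
Standard deviation of log2 intensity over the 4 control arrays (vertical axis) against mean intensity on a log scale (horizontal axis), 1 grey point per gene, with 15 selected genes in orange and a dashed line at an SD of 0.5. Most genes lie below the line at all intensities, and Fabp2, Zfp979, Hspa1a, Fos, Jun and Rgs2 lie far above it, while Foxp3 and Il2ra lie near 0.1.

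Few genes varied strongly between the 4 arrays. Among the 11403 genes above the floor on all arrays, 143 (1.25%) had an SD over 0.5 and 12 an SD over 1. The median SD by decile of brightness ran from 0.105 in decile 4 to 0.148 in decile 8 (counted from the dimmest), so spread did not fall with brightness. Leaving out controls 4 and 5 together, a choice made after these values were seen, reduced the count with an SD over 0.5 to 27 and the median SD to 0.0624. Of the 15 genes with the largest SD, 5 were immediate early or heat shock genes and 3 were listed genes of the intestinal epithelium. These lists held 20 and 12 of the 11403 genes above the floor on all arrays. All of those 8 were higher on controls 4 and 5 than on controls 2 and 3, an order that 18.2% of all genes showed. The intestinal list was drawn up after its first members had been noticed, so its share and order here follow in part from that choice.

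Immediate early genes are switched on within minutes by growth factors, receptor engagement or stress, without new protein synthesis, and heat shock genes answer protein damage. Hspa1a, an inducible chaperone of the HSP70 family (transcript cluster 10450369; gene on chromosome 17), read 96.3, 97.4, 2175 and 251, a difference of 22.6 times between the highest and the lowest array. Fos (10397346; chromosome 12), a subunit of the AP-1 transcription factor, read 88.4, 89.1, 1264 and 740.2, and its partner Jun (10514466; chromosome 4) read 161, 222, 2502 and 1449. On controls 2 and 3 Fos and Hspa1a lay between the floor and the array median, and on control 4 they were 10 or more times brighter. Fosb read 122, 138, 869 and 540.5, Junb read 345, 312, 991 and 771, and Dusp1, a phosphatase that switches off MAP kinases, read 937, 865, 4027 and 2797. Hspa1a was much lower on control 5 than on control 4, whereas Fos, Jun, Fosb, Junb and Dusp1 stayed high on both. Zfp36, which destabilises messenger RNA of cytokines, read 1005, 991, 1582 and 2455, and Cd69, an early activation antigen that retains T cells in tissue, read 1416, 1411, 2229.5 and 3014. Both were highest on control 5. Dnajb1, a co-chaperone of HSP70, read 343, 386, 1162 and 356, so control 4 alone was high. Hspa1a has a near-identical neighbour, Hspa1b, which no feature names alone, so the level may belong to both genes.

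Outside the list, Rgs2, a brake on G protein signalling, read 116, 159, 1173 and 1375. Ppp1r15a (GADD34), a stress-induced phosphatase subunit, read 181, 165, 956 and 857, Nr4a2, an orphan nuclear receptor, read 139.7, 188, 284 and 674, and Dnajb4 read 271, 275, 969.9 and 655. Each of these 4 genes was also higher on controls 4 and 5. Of the genes often used as reporters of TCR signalling, Nr4a1 (Nur77) read 1202, 1316, 1386 and 1329 and Egr1 read 513, 524, 539 and 528, with SDs of 0.087 and 0.030, while Egr2 read 677, 753, 445 and 523 and Egr3 read 311, 326, 274 and 234, both highest on control 3. Constitutive Hspa8 read 6233, 7759, 7355 and 6298. Its gene is on chromosome 9, but the commonest chromosome of its neighbouring features is 5, so this level may be that of a copy elsewhere.

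Over the whole list of 21, the number of genes above their mean on the other 3 arrays was 2, 6, 19 and 13 for controls 2, 3, 4 and 5. Over all genes the same share was 56.9%, 53.9%, 48.1% and 47.1%. The median deviation of the list from the gene means was -0.32, -0.32, 0.63 and 0.070 log2 units. The list was thus high on control 4, near the gene means on control 5 and low on controls 2 and 3.

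Of the immediate early and heat shock genes, Hspa1a, Fos and Jun varied most, but Hspa1a did not follow Fos and Jun on every array. The promoters of these 3 genes are shown because the genes had the largest spread of the list. Each is a RefSeq window (GRCm38.p6) of 300 bases, from 250 before to 50 after the transcription start, read along the gene. Fos is at chr12:85473640-85473939 (plus strand), Jun at chr4:95052173-95052472 (minus strand) and Hspa1a at chr17:34972107-34972406 (minus strand). Capitals mark matches, on either strand, to TATAAA (the TBP element), to TGACGT (the core of the site for CREB and ATF factors) and to GAANNTTC (a pair of facing half-sites of heat shock factors).
Fos: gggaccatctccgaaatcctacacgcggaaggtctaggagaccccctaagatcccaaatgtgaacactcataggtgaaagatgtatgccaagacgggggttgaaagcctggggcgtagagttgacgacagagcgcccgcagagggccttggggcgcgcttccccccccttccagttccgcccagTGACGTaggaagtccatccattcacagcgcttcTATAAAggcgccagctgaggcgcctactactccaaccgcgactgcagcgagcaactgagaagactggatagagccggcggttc
Jun: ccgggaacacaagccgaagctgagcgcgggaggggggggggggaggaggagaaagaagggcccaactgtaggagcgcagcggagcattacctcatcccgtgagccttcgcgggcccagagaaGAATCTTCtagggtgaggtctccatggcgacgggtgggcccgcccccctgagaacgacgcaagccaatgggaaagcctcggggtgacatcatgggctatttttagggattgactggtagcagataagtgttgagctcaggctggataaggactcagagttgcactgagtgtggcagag
Hspa1a: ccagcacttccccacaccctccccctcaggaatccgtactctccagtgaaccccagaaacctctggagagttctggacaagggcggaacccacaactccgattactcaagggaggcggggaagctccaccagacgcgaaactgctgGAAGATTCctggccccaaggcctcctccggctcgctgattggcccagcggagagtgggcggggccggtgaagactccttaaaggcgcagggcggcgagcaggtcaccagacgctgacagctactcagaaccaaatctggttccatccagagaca
Fos holds TATAAA from 33 bases and TGACGT from 66 bases before the start. Jun holds GAANNTTC as GAATCTTC from 128 bases before it, and Hspa1a holds it as GAAGATTC from 104 bases before it. The windows hold 20, 15 and 15 CpG dinucleotides. Over the 15 windows available for the list, 2 held TATAAA, 3 TGACGT and 3 GAANNTTC. The shares were 12.1%, 9.35% and 6.75% over the 15483 measured genes with a window. GAANNTTC was also held by 5 of 27 windows of cell cycle genes and 6 of 27 of intestinal genes. The motifs were chosen after the genes were known, and a match is a run of letters and not a site shown to be used.

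**Figure D5:**
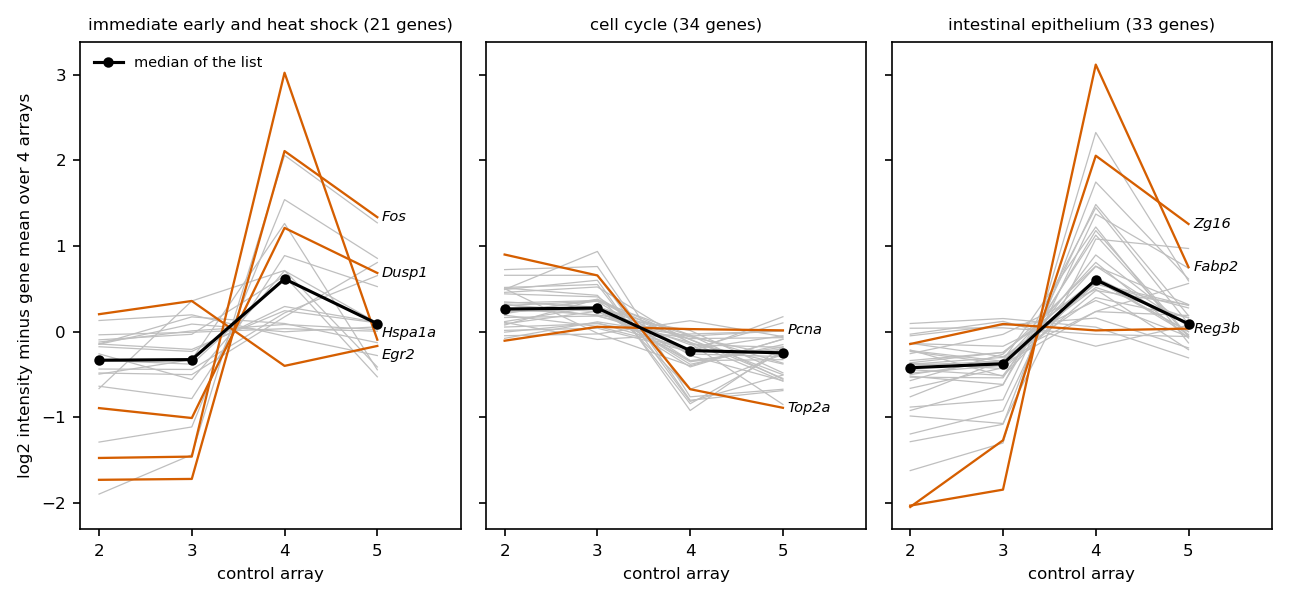
Log2 intensity of each gene minus its mean over the 4 control arrays (vertical axis) for 3 lists, by array (horizontal axis; the arrays have no order and lines only join the values of 1 gene); grey and orange lines are genes and the black line is the list median. Immediate early and intestinal genes are highest on control 4, and cell cycle genes are higher on controls 2 and 3 than on controls 4 and 5.

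Cell cycle genes ran the other way. The number above the mean of the other 3 arrays was 31, 31, 3 and 2 of 34, against 56.9%, 53.9%, 48.1% and 47.1% of all genes. The median deviation was 0.28, 0.28, -0.21 and -0.27 log2 units. Top2a, the topoisomerase of dividing cells, read 278, 235, 93.5 and 80.4, the cyclin gene Ccna2 read 219, 225, 76.2 and 82.4, and Ccnb2 read 303, 327, 114 and 191. Mki67, a marker of cycling cells, read 271, 255, 119 and 158, and Kif11, a motor of the mitotic spindle, read 177, 177, 63.7 and 78.8. Controls 2 and 3 lay above controls 4 and 5 for each of these genes, without overlap, as for 22.4% of all genes. This order held for 28 of the 34 genes. They include Mcm5, a subunit of the replicative helicase, at 413, 464, 336 and 252, and Rrm1, of ribonucleotide reductase, at 556, 525, 373 and 365. It did not hold for Pcna, the sliding clamp of replication, at 2076, 2323, 2281 and 2258, nor for the mitotic kinase gene Aurka, at 106, 121, 108 and 113, and Cdc20, an activator of the anaphase-promoting complex, at 132, 115, 120.4 and 123. Of the cyclins of G1 phase, Ccnd2 read 3947, 4451, 3527 and 2821 and Ccnd3 read 1294, 1352, 857 and 522, each lowest on control 5. The list median was 0.38 log2 units above the array median on all 4 arrays and 0.87 on controls 2 and 3 alone. In bulk samples, fewer cycling cells and less of these transcripts per cell cannot be told apart.

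Of 33 listed genes of the intestinal epithelium, 27 were higher on both controls 4 and 5 than on controls 2 and 3, against 18.2% of all genes. The reverse order held for 2, against 22.4% of all genes. On all 4 arrays 12 of the 33 were above the floor, against 57.7% of all genes. This list of 33 was drawn up after the first of its members had been noticed, so its pattern is a description. Fabp2, the fatty acid binding protein of enterocytes, read 25, 28.4, 886 and 172, a difference of 35.4 times. Apolipoprotein genes followed, with Apoa1 at 138, 159, 1127 and 514, Apoa4 at 132, 159, 783 and 505 and Apoc3 at 84, 79, 352 and 326. Anpep, an aminopeptidase of the brush border, read 50.8, 63.5, 784 and 236, Zg16, a lectin of goblet cells, read 36.4, 62.5, 625 and 359.6, and Lgals4, a galectin of the gut lining, read 82.4, 81.9, 259.9 and 114. Control 4 was the highest and control 5 the second highest for each of these 7 genes. Of the list of 33, 2, 5, 31 and 21 genes were above the mean of the other 3 arrays, against 56.9%, 53.9%, 48.1% and 47.1% of all genes. The median deviation was -0.41, -0.37, 0.62 and 0.069 log2 units, so on control 5 the list was near the gene means. The summed intensity was 2182, 2341, 8019 and 4394. Other genes of the list stayed below the floor on all arrays, among them Fabp1 at 17.5, 18.6, 36.3 and 30.3 and Reg3b at 26.3, 30.9, 29.3 and 29.8. Alb, Ahsg, Fgb and Ttr, known from liver, were below the floor on all arrays, at 32 to 35.9, 32.7 to 38.1, 41.5 to 50.8 and 46.8 to 48.2. The source of the apolipoprotein signal was not tested. The intestinal genes, the immediate early genes and, inversely, the cell cycle genes thus separated the same arrays, and the part of any one of them in the others was not tested.

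Single genes set individual arrays apart. Zfp979, a zinc finger gene of a repeated family, read 223, 8.82, 166 and 319, so control 3 was 36.2 times below the highest array. Slc15a2, a peptide transporter, read 59.8, 47.6, 153 and 617 and was high on control 5, and Srsy, a gene of the Y chromosome, read 70.8, 45.4, 56 and 291. Rab6b, a trafficking GTPase, read 161, 473, 146 and 141, where control 3 was the high array. On control 4, S100a11, a calcium-binding protein, was low, at 2596, 2554, 955 and 2646, as were the interferon-inducible genes Ifi208, at 1031, 1391, 349 and 791, and Ifi213, at 479, 951, 351 and 1154. Rab1b, another trafficking GTPase, read 1548, 1540.0, 1283 and 498, and the adaptor gene Shc1 read 486, 437, 487 and 182, both low on control 5. Khdc1a, at 181, 48.8, 67.4 and 110.1, and Atp9a, at 457, 247, 223 and 146, were highest on control 2, and Lman2l, at 206, 368, 230.5 and 149.8, on control 3. Tmod4, a tropomodulin known from muscle, read 97.4, 91.1, 316 and 279.7 and divided the arrays as the immediate early genes did.

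The lists that define the cells had spreads close to that of all genes. The median SD of members was 0.14 for TCR signalling, 0.15 for Treg surface receptors and 0.15 for Treg transcription factors, beside 0.135 for all genes above the floor. It was 0.54 for immediate early and heat shock genes, 0.32 for cell cycle genes and 0.50 for intestinal genes. No member of the lists of Treg transcription factors and surface receptors had an SD over 0.5, and 1 of 25 TCR signalling genes, Cd4, did (0.52). These lists are too short to set against the 1.25% of genes above the floor.

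Brightness went with the base composition of the promoter. RefSeq windows were found for 15483 of the 19752 genes. The median number of CpG dinucleotides in the 300 bases rose from 2 in the dimmest decile of genes to 24 in the brightest, and the share of windows with 10 or more from 12.6% to 85.3%. The letters TATAAA went the other way, from 32.7% of windows in the dimmest decile to 7.67% in the brightest. Promoters of ribosomal protein genes had a median of 21 CpG, those of immediate early genes also 21, and those of the olfactory and vomeronasal receptors 1. Several bright T cell lists did not have CpG-rich starts: the median was 5 for Treg surface receptors, 8 for TCR signalling and 4 for homing receptors, while Treg transcription factors had 20. Of helper cytokine windows 7 of 16 held TATAAA, against 12.1% over all genes with a window. These shares describe genes, which are not independent, and carry no test.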

How the data were processed

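The deposited values are array intensities on a linear scale, made by the authors with Affymetrix Power Tools and its RMA method according to the submitters' processing notes, 1 value per transcript cluster. RMA usually includes normalisation between arrays, which limits overall differences between them. Of tool versions, build and filters, none were found (not given in the sources used here), and the 11 arrays of the other groups were left out. Of 24922 features, 21425 named 1 gene, 1399 several and 2098 none. Symbols were updated through the Entrez ID of the RefSeq table (GRCm38.p6; 21347 matched), and for 921 genes with several features the one brightest over the 4 arrays was kept, which left 19752 genes. Values were taken as log2, with no pseudocount and no filter, in Python 3.11.15 with pandas 2.3.3 and numpy 2.4.6. The scripts were tested on simulated data. Labels give no scan date or slide. The number of arrays limits the precision.

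Members, lists and rules were chosen with earlier results of these data known. Named genes are members of the lists, the 20 brightest genes, the 15 of largest SD among genes above the floor on all arrays, and per array the 4 highest and 4 lowest against the other 3, with predicted genes and small RNAs passed over in the last 3. The intestinal list, the check of neighbouring features and the motifs were added after the data were seen, and the name patterns for T cell receptor and immunoglobulin segments were corrected then. Alternatives were quantile normalisation, the mean of a gene's features, features naming several genes, other floors, the median over genes and leaving out arrays.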

Additional observations from a re-analysis of the deposited data

Results flagged for a closer look

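In a group of 4 arrays, a value stands apart where its gap to the nearest other array, divided by the range of all 4 on the log2 scale, exceeds Dixon's critical value for 95%. Chance passes about 1 in 20 groups, and 9.63% of all 19752 genes and 9.92% of the 262 named genes passed here. Of the 1903 genes that passed, 585 (30.7%) were lowest on control 5, 433 (22.8%) highest on control 5 and 302 (15.9%) lowest on control 4. Of the 26 named genes that passed, 6 (Trbv1, Baiap2l1, Rab1b, Shc1, Rab6b and S100a11) had been named for their distance from the other arrays, so that their standing apart follows from that choice.

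The genes lowest on control 5 included Notch1 (gap over range 0.9005; 836 against 1367 to 1443), Trbv1 (0.8465), Baiap2l1 (0.9498), Rab1b (0.8348) and Shc1 (0.89). Ets1 (0.9), Stat5b (0.841), Csk (0.9471), Tap1 (0.9573), Tgfbr2 (0.8809) and, near or below the floor, Hk2 (0.944), Itgax (0.865) and Il17a (1.0) were also lowest there. Control 5 was highest for Lcp2 (0.9688) and Cd74 (0.836), and for the dim genes Prm2 (0.9361), Cox8b (0.9599) and Il6 (0.8383). The floor itself was highest on control 5 (0.833), and the median of the cytokine receptor list was lowest there (0.9783; 8.65 times the array median against 11.4 to 11.5).

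On control 4, Dnajb1 (0.9035) and the dim Cox7a1 (0.9066) were high, and S100a11 (0.965; 955 against 2554 to 2646) and Tigit (0.8683) were low. On control 3, Rab6b (0.8942; 473 against 141 to 161) and the dim Mx2 (0.9673) were high, and the median of the list of suppressive mediators was low (0.8367; 1.64 times the array median against 1.75 to 1.78). On control 2, Rbpj (0.8674; 571 against 470.3 to 483) was high and Il4 (0.8689), below the floor, was low.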

How the results depend on the processing

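The count of genes above the floor on all arrays, 11403, was 11407 after quantile normalisation and 8060 with the floor at the 99th percentile of the receptor genes, and 6150 with the floor taken from genes of other organs. That last floor is set by few genes, some of which are bright. Leaving out controls 4 and 5 together, an alternative chosen after the data were seen, gave a median spread of 0.0624 in place of 0.135 and 27 genes with an SD over 0.5 in place of 143; only a pair of arrays is left there. Leaving out 1 array at a time gave 11453 to 11909 genes above the floor, 9240 to 9414 above the median, a median spread of 0.0949 to 0.139, 97 to 205 genes with an SD over 0.5 and a lowest correlation of 0.987 to 0.991. The lists whose median was above the array median on all arrays numbered 23 of 37 in each alternative run, except for 24 without controls 4 and 5. Of the 262 named genes 188 were above the median on all arrays, and 188 to 193 under the alternatives. No gene or list that lay on 1 side of the array median on all arrays changed side, but 16 other named genes did when arrays were left out. Without controls 4 and 5, Fos lay at -0.29 log2 units from the median in place of 1.42 and Hspa1a at -0.17 in place of 1.29; without control 5, Slc15a2 lay at -0.52 in place of 0.23. Of 2358 levels of named genes, 19 moved by more than their SD, 11 of them when features of a gene were averaged. No paired analysis was possible because the results describe 1 group and come from no test. A gene near the floor cannot be told from background, and its spread is that of background.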
